A study of Mus musculus with 72 samples.

Results

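Conventionally housed mice without a liver clock were compared with WT mice at zeitgeber time (ZT) 2, which is 2 h after lights on. The members were the 3 LKO and the 3 WT liver libraries that the labels give as SPF (specific pathogen free) and ZT 2, and they made up 6 of the 72 libraries of the study. WT mice carried Bmal1 fl/fl alleles, in which the gene of the clock activator BMAL1 is flanked by loxP sites, and LKO mice carried Bmal1 fl/fl together with Albumin-Cre. All of these mice were adult C57BL/6 males that kept a gut microbiota, were fed ad libitum and lived in equal spans of light and dark, and each library came from 1 mouse. Germ-free (GF) WT and LKO mice of the same genotypes, 3 of each at ZT2, and SPF mice at ZT6, ZT10 and ZT22 gave side-by-side values. Cre was driven by the albumin promoter, which is active in hepatocytes, so the other cells of the liver and the other organs keep Bmal1. No group carried Cre without the floxed alleles, so Cre itself and the loss of Bmal1 cannot be told apart.

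The liver clock is a feedback loop of transcription factors. BMAL1 (gene symbol Arntl) pairs with CLOCK or NPAS2, binds E-box sequences and switches on the genes of its own repressors, PER and CRY, as well as those of the REV-ERB receptors (Nr1d1 and Nr1d2) and of the PAR bZIP factors (Dbp, Tef and Hlf). The REV-ERB receptors repress genes that carry ROR response elements, Arntl, Npas2 and Cry1 among them, and the ROR receptors activate the same elements. In the mouse, which is active at night, ZT2 falls in the early rest phase, when the liver moves from handling food to living on its stores.

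The 6 libraries held 18345643 to 20237288 counts, and values below are CPM, counts scaled to library size with TMM factors. Each value is the level of a gene in 1 mouse, and levels of different genes were not compared because CPM does not allow for length. Albumin, the most abundant transcript, took 7.44% to 8.88% of the counts in the WT libraries and 2.91% to 5.22% in the LKO libraries. Genes that stood at least 1 log2 unit away from the mean of the other 2 libraries of their group numbered 80 to 282, with the most in WT replicate 2. No 2 libraries at ZT2 held the same counts. In bulk tissue fewer cells of a type and less RNA per cell cannot be told apart.

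At ZT2, 937 of the 13596 genes tested (6.89%) differed between SPF LKO and SPF WT livers at an adjusted p under 0.05, with 496 higher in LKO (3.65%) and 441 lower (3.24%). The threshold was applied to edgeR's quasi-likelihood test after Benjamini-Hochberg adjustment over all genes tested. A p-value reflects the spread between mice within groups, estimated over the 4 groups of ZT2 together, GF mice included. A fit of the 6 SPF libraries alone called 898 genes. The 6.89% is the share to set beside the counts of list members below. Of the 937 genes, 862 were protein coding, 31 were lincRNAs and 15 were antisense genes. The log2 fold change reached at least 1 in size for 411 genes and at least 2 for 153. Its median was -0.011 over all genes tested. Log2 fold changes of LKO against WT are given as the value ± standard error (SE), and the SE had a median of 0.176. The 3 LKO values lay entirely above or below the 3 WT values for 928 of the 937 genes, against 27.2% of all genes tested. With library sizes alone in place of TMM factors 777 genes were higher and 289 lower, so the share of higher genes was 72.9% there against 52.9%, and the median over all genes moved to 0.089. Without 1 of the 6 libraries the count ranged from 479 (without WT replicate 1) to 1009 (without WT replicate 2), and it was 488, 527, 563 and 572 without LKO replicate 1, WT replicate 3, LKO replicate 3 and LKO replicate 2.

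The clock genes were shifted in both directions at ZT2. The REV-ERB genes were lower in LKO livers. Of 9 genes that the REV-ERB receptors repress 4 were called higher, Npas2, Cry1 and Lpl among them, and 0 lower. The median log2 fold change of the 9 was 0.044, and 2 of them were lower at an unadjusted p under 0.05 in edgeR's test. Of the 5 activators 2 were higher and 0 lower, and of the 9 repressors tested 2 were higher and 3 lower, while the tenth, Ciart, did not pass the filter on low counts.

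Arntl, the targeted gene (chromosome 7 from 113207465 to 113314126, GRCm38), stood at 11.1, 28 and 15.7 CPM in WT replicates 1, 2 and 3 and at 14.5, 11.8 and 11.1 CPM in the LKO replicates. The groups overlapped, WT replicate 2 was the highest, and the log2 fold change of LKO against WT was -0.55 ± 0.25, adjusted p 0.23. Reads were counted over every exon and the excised one was not set apart, so this value does not check the genotype. Clock, whose product is the partner of BMAL1, stood at 98.6, 108 and 128 CPM in WT and 108, 107 and 120.3 CPM in LKO livers, a log2 fold change of 0.008 ± 0.15, adjusted p 0.984.

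Nr1d1, which encodes the repressor REV-ERBα (chromosome 11 from 98767932 to 98775333), stood at 49.2, 46.2 and 50.3 CPM in the WT and 4.32, 3.55 and 3.8 CPM in the LKO livers. That is a 12.5-fold lower level (log2 fold change -3.64 ± 0.19, adjusted p 1.94e-07) with groups far apart and little spread within each. Its relative Nr1d2, for REV-ERBβ, stood at 96.9, 56.5 and 103 CPM against 13.3, 12.8 and 18.3 CPM (-2.53 ± 0.22, adjusted p 1.24e-05), and WT replicate 2 was the lowest WT liver. Bhlhe41, which encodes the E-box repressor DEC2, had 55 counts over the 3 WT and 3 over the 3 LKO libraries, a ratio of 20.1 with a 95% counting interval of 6.52 to 100.3. A counting interval leaves out the spread between mice.

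Npas2, whose product can stand in for CLOCK, rose from 1.07, 6.95 and 1.6 CPM in WT to 34.6, 25.5 and 21.8 CPM in LKO livers (3.07 ± 0.44, adjusted p 9.07e-04), and WT replicate 2 was again the nearest to the LKO livers. Cry1, a PER partner and repressor of BMAL1, stood at 9.08, 17.7 and 9.74 CPM against 71.6, 69.9 and 58.9 CPM (2.45 ± 0.21, adjusted p 1.21e-05). Cry2, its paralog, was higher by a smaller step, from 23, 25.4 and 20.5 CPM to 45, 39.5 and 33.4 CPM (0.78 ± 0.17, adjusted p 0.0157). Lpl, for the lipase that frees fatty acids from circulating triglyceride, rose 14.9-fold, from 37.5, 56.5 and 43 CPM to 613, 725 and 706 CPM. The call of Cry2 without WT replicate 1 or 3 or LKO replicate 1 (adjusted p up to 0.0717) was lost, and the calls of Nr1d1, Nr1d2, Npas2, Cry1 and Lpl held without each of the 6 libraries.

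None of the 3 Per genes passed the test at this time. Per1 stood at 18.9, 2.11 and 25.8 CPM in WT and 7.8, 5.37 and 8.44 CPM in LKO livers (log2 fold change -1.11 ± 0.58, adjusted p 0.301), with WT replicate 2 below every other liver and the other WT livers above. Per2 was at 11.9, 7.28 and 11.3 CPM against 19.4, 12.7 and 17.2 CPM (0.70 ± 0.20, adjusted p 0.0508), higher in each LKO liver though not past the threshold. Per3 was at 5.52, 2.77 and 5.1 CPM against 4.36, 4.3 and 4.24 CPM (-0.052 ± 0.25, adjusted p 0.937). The PAR bZIP factors and their antagonist Nfil3 gave 0 of 4 called, with Dbp at 6.59, 3.05 and 6.6 CPM against 3.31, 3.17 and 3.58 CPM (-0.69 ± 0.30, adjusted p 0.21). For Tef the adjusted p was 0.877, for Hlf 0.816 and for Nfil3 0.912, and at an unadjusted p under 0.05 the count of these 4 genes was 1 (Dbp), while DESeq2 called 0. Rora and Bhlhe40 were not called either (log2 fold change 0.066 ± 0.17, adjusted p 0.868 and 0.56 ± 0.19, adjusted p 0.106). Of the 8 genes for turnover of clock proteins (kinases and ubiquitin ligases) 0 were called by edgeR or DESeq2 and 0 had an unadjusted p under 0.05.

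**Figure D1:**
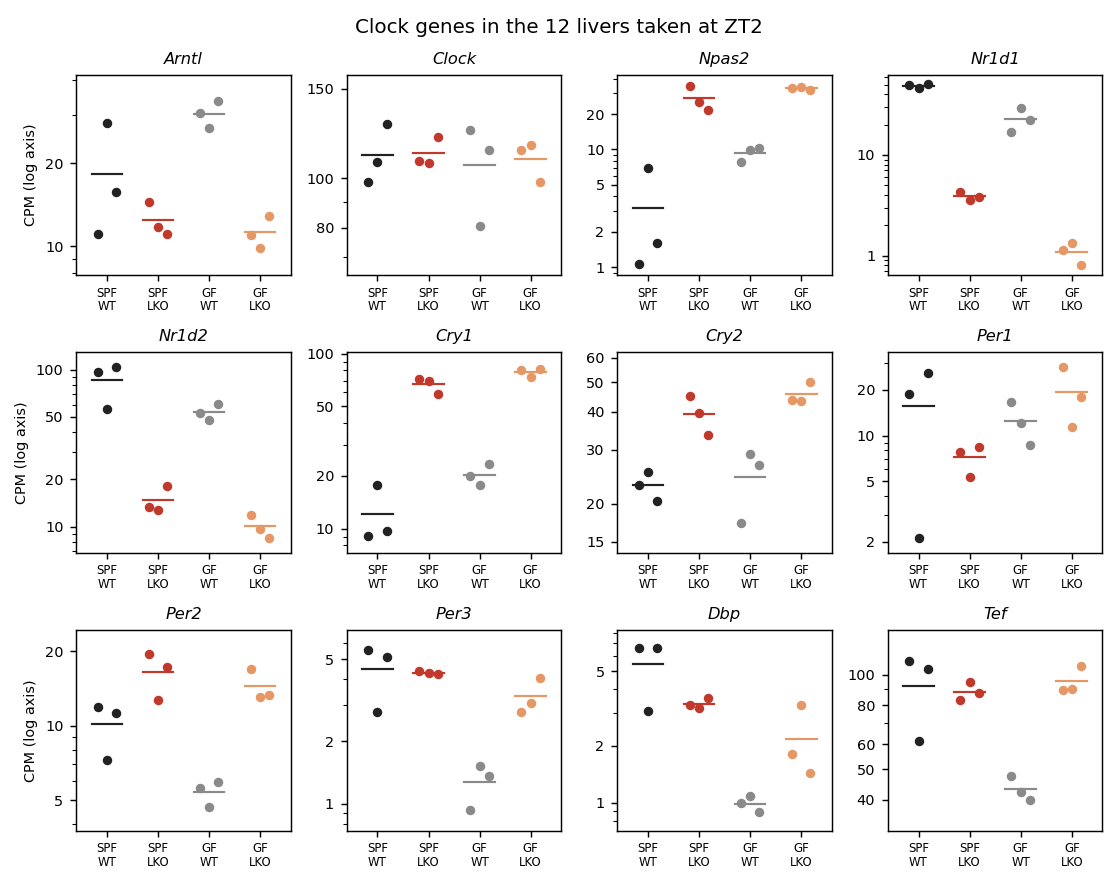
Levels of 12 clock genes at ZT2 in CPM on log axes, with 1 point for each of the 12 livers and a line at each mean of 3. Nr1d1 and Nr1d2 lie far lower and Npas2, Cry1 and Cry2 higher in LKO than in WT livers of SPF mice, while Arntl and Clock overlap there.

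WT replicate 2 lay on the side of the GF WT livers for several of these genes. For Arntl the GF WT livers held 30.3, 26.8 and 33.6 CPM, against 28 in WT replicate 2 and 11.1 and 15.7 in the other SPF WT livers. For Npas2 the GF WT livers held 7.83, 9.91 and 10.3 CPM, against 6.95 in WT replicate 2. For Tef, a PAR bZIP factor, the GF WT livers held 47.7, 42.5 and 39.9 CPM and the SPF WT livers 111, 61.6 and 104 CPM, so WT replicate 2 was again the nearest. SPF WT livers at ZT22 also lay on that side for Arntl, at 33.7, 34.5 and 39.5 CPM on a scale shared by all 72 libraries. On that scale WT replicate 2 of ZT2 held 27.4 CPM. For Per3 it also lay near the SPF WT livers of ZT22, at 2.71 CPM against 2.07, 2.45 and 2.09 CPM. For Nr1d1 it lay far from them, at 45.2 CPM against 1.73, 1.96 and 5.6 CPM. Not every gene placed WT replicate 2 with the GF WT livers either. Acss2 stood at 149 CPM in WT replicate 2 and at 474 to 531 CPM in GF WT livers. For Cps1 the values were 3551 CPM and 4917 to 5954 CPM. The cause was not tested.

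Promoter sequences show where the elements named above stand in clock genes, some called at ZT2 and some not. The window was 250 bases before to 50 after each RefSeq start (build GRCm38.p6), available for 10260 of the genes tested, and both strands were searched. The E-box CACGTG was present in 11.6% of these windows, in 13.7% of the 364 windows of genes higher in LKO and in 11.4% of the 342 windows of genes lower in LKO. For the ROR response element (TAGGTCA or TGGGTCA) the shares were 6.42%, 8.52% and 7.02%, and for the D-box (TTATGTAA or TTACGTAA), which the PAR bZIP factors bind, 0.897%, 0.824% and 2.34%. Shown here are Cry1, which rose and has an E-box, at chr10:85185005-85185304 on the minus strand, and Bhlhe41, which fell and has an E-box, at chr6:145865371-145865670 on the minus strand. Arntl, not called at ZT2, at chr7:113207261-113207560 on the plus strand, has a ROR response element, and Per3, not called either, at chr4:151044616-151044915 on the minus strand, has 2 D-boxes. Each runs 5′ to 3′ with the match in capitals.
Cry1: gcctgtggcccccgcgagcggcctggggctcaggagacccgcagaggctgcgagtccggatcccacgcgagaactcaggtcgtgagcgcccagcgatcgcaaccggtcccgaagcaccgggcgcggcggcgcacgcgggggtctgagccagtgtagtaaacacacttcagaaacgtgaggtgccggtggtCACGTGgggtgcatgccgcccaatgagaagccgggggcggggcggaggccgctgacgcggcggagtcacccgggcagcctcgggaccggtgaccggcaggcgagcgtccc
Bhlhe41: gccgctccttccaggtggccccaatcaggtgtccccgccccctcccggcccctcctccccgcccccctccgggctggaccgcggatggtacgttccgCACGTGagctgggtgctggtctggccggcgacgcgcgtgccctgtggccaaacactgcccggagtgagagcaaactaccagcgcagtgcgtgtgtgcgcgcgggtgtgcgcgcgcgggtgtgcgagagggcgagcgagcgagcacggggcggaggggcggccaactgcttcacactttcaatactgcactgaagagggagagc
Arntl: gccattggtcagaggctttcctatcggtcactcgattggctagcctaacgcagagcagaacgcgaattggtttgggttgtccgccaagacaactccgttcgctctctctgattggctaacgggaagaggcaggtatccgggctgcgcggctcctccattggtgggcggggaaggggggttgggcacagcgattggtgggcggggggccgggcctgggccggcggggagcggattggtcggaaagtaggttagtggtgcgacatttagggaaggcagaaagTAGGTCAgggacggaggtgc
Per3: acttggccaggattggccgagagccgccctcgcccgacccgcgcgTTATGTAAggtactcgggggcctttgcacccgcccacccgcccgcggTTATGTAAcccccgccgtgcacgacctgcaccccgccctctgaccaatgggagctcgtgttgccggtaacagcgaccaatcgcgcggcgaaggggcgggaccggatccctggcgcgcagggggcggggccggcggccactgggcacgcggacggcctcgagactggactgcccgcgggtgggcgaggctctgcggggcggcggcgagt
In these windows of Nr1d1, Nr1d2, Npas2 and Cry2 none of these letters was found, which says nothing of sites outside them. A match is a description of the letters and not evidence of binding.

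Outside the clock the largest changes were in single genes of varied function. The 12 largest increases and 12 largest decreases were taken among genes called at ZT2 whose groups did not overlap and whose log2 CPM averaged at least 1. The increases were led by Moxd1, a monooxygenase-like gene, at 0, 0.141 and 0.361 CPM in WT and 70.1, 7.8 and 11.9 CPM in LKO livers, where LKO replicate 1 stood far above the other 2. The lincRNA 4930459C07Rik rose from 0.147, 0.0939 and 0.155 CPM to 17.8, 13.8 and 12.4 CPM and Tox2, an HMG-box factor, from 0.0977, 0.188 and 0.258 CPM to 15.8, 14.5 and 15.5 CPM. Levels of either were alike in the 3 LKO livers, and their log2 fold changes were 6.74 ± 0.29, adjusted p 3.72e-08 and 6.36 ± 0.47, adjusted p 4.27e-06. Loxl4, a lysyl oxidase of the extracellular matrix, went from 1.9, 1.93 and 1.75 CPM to 67, 59 and 35.5 CPM, and Grk5, a kinase of G protein coupled receptors, from 6.84, 10.6 and 7.99 CPM to 126, 109.8 and 89.7 CPM (3.68 ± 0.22, adjusted p 6.01e-07). Slc34a2, a phosphate transporter, was at 0.488, 2.3 and 0.309 CPM against 29.3, 33.8 and 15.7 CPM, and Ntrk2, the BDNF receptor, at 1.07, 1.03 and 5.05 CPM against 46.3, 52.9 and 71.8 CPM. The same genes were higher in GF LKO than in GF WT livers, with log2 fold changes from 2.20 (Grk5, adjusted p 3.05e-05) to 5.32 (4930459C07Rik, adjusted p 6.58e-08), except that Moxd1 was not called there (2.34 ± 0.73, adjusted p 0.103).

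The decreases had errors of very different size. Mme, for the cell surface peptidase neprilysin, fell from 53.6, 66.3 and 74.1 CPM in WT to 5.93, 5.56 and 10.1 CPM in LKO livers (-3.16 ± 0.25, adjusted p 6.72e-06), and Nat8, an N-acetyltransferase, from 8.69, 18.1 and 12 CPM to 0.741, 1.73 and 1.24 CPM (-3.39 ± 0.29, adjusted p 1.24e-05). Both were also lower in GF LKO livers, with log2 fold changes of -5.06 ± 0.29, adjusted p 4.10e-07 and -5.29 ± 0.32, adjusted p 6.51e-07. With Nr1d1 they had the smallest SEs among the 12 decreases. The acute phase genes Saa1, Saa2 and Orm3, the chemokine Cxcl1 and the metallothionein Mt1 had SEs of 0.71 to 1.09 on the log2 scale and 1 WT liver that stood apart, and Pfkfb3 and Mfsd2a had 1 low WT liver. Mup17 and Mup16 belong to the major urinary proteins, pheromone carriers whose near-identical copies make their counts uncertain. Mup17 stood at 49.4, 214 and 160.3 CPM in WT and 6.19, 1.12 and 0.884 CPM in LKO livers. The calls of Sult1e1 without WT replicate 1, 2 or 3 or LKO replicate 1 or 3 (adjusted p up to 0.103), of Mfsd2a without WT replicate 1 or 3 or LKO replicate 1, 2 or 3 (adjusted p up to 0.129), of Pfkfb3 without WT replicate 1 or 3 or LKO replicate 1, 2 or 3 (adjusted p up to 0.104), of Cxcl1 without WT replicate 1 or LKO replicate 1, 2 or 3 (adjusted p up to 0.281), of Mt1 without WT replicate 1 or LKO replicate 1, 2 or 3 (adjusted p up to 0.166), of Mup16 without WT replicate 3 or LKO replicate 2 or 3 (adjusted p up to 0.0793) and of Orm3 without LKO replicate 2 (adjusted p up to 0.0564) were lost, and those of the other 17 held without each library.

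**Figure D2:**
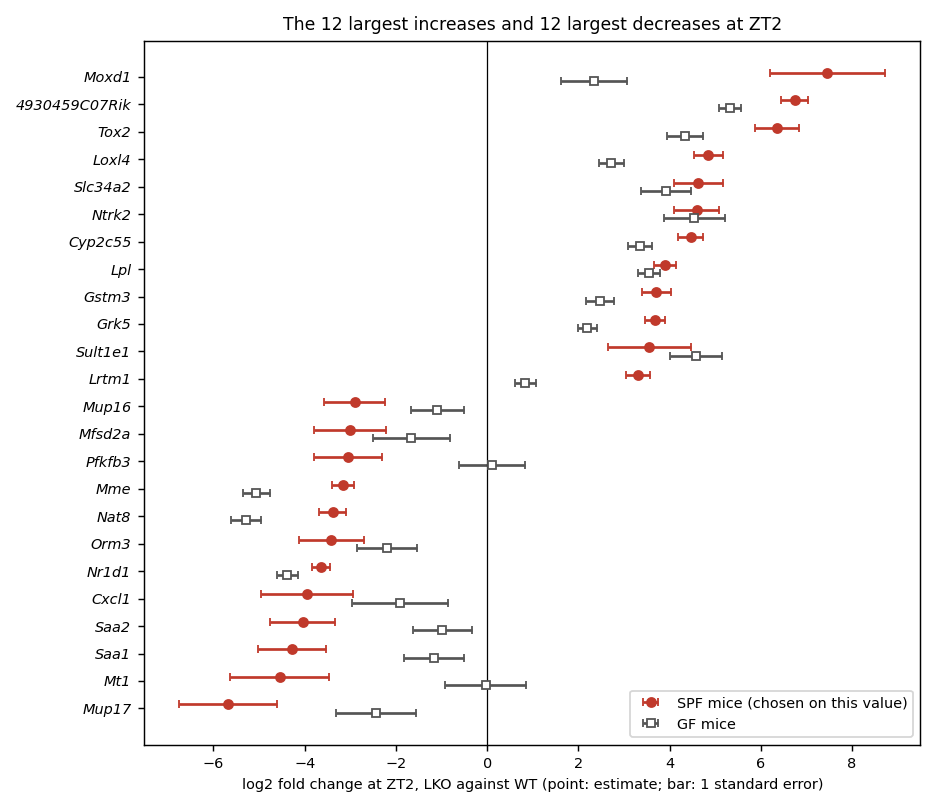
Log2 fold change at ZT2, LKO against WT, of the 12 largest increases and 12 largest decreases, with bars of 1 SE. Circles are SPF mice, by which the genes were chosen, and squares are GF mice, in which Moxd1 to Lrtm1 lie above 0 and most of the decreases below.

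Genes of cholesterol synthesis were higher in SPF LKO livers. Of 26 genes of cholesterol synthesis and uptake 14 were called higher and 0 lower, the fold change was positive for 26 of 26, and the list had a median log2 value of 0.837 where that of all tested genes was -0.011. Hmgcs1, which makes the precursor HMG-CoA, stood at 237, 219 and 168 CPM in WT and 398, 713 and 554 CPM in LKO livers (1.42 ± 0.19, adjusted p 5.58e-04). LKO replicate 2 was the highest liver and every LKO liver lay above every WT liver, and later steps showed the same. Sqle, the squalene epoxidase, was at 29.1, 28 and 15.3 CPM against 49.5, 103 and 63.7 CPM, and Lss, which closes the sterol rings, at 25.6, 32.5 and 19.8 CPM against 62.7, 97.9 and 78.4 CPM, with log2 fold changes of 1.57 ± 0.26, adjusted p 0.00231 and 1.62 ± 0.22, adjusted p 5.26e-04. Leaving out 1 library gave 9 to 16 higher genes (9 without WT replicate 3 or LKO replicate 2), with the median between 0.549 and 1.04. At other times of day SPF mice gave 1 higher and 3 lower (ZT6, median -0.126), 2 higher and 0 lower (ZT10, 0.259) and 3 higher and 0 lower (ZT22, 0.446) of the 26.

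In GF mice the same 26 genes gave 0 calls by edgeR and a median of -0.349, with 23 of 26 fold changes negative. At an unadjusted p under 0.05 there were 10 lower and 1 higher, and DESeq2 called 1 lower. Hmgcs1 stood at 798, 849 and 997 CPM in GF WT livers and 638, 556 and 530.3 CPM in GF LKO livers, so that the GF WT livers were above the SPF LKO livers. The test of the difference between GF and SPF effects called 3 of 13596 genes (0.0221%), and 2 of them were Hmgcs1 (GF minus SPF -2.03 ± 0.27, adjusted p 0.0394) and Fdps, the farnesyl diphosphate synthase (-1.94 ± 0.28, adjusted p 0.0434). Over the whole list the difference was negative for 26 of 26 genes and had an unadjusted p under 0.05 for 20 of them. The third gene called was Lrtm1, a membrane protein, at 6.2, 3.38 and 4.54 and 61.4, 35.3 and 43.7 CPM in SPF and 34.6, 43.2 and 37.7 and 52, 89.3 and 64.8 CPM in GF mice, WT before LKO (-2.48 ± 0.35, adjusted p 0.0394). The number of genes called for this difference was 20 without SPF WT replicate 2, 14 without SPF LKO replicate 1, 6 without GF WT replicate 1, and 0 or 1 without SPF WT replicate 3, SPF LKO replicate 3, GF WT replicate 2 or 3 or any 1 GF LKO replicate, while 1117 genes had an unadjusted p under 0.05 with all libraries.

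Bile acids are made from cholesterol, and of 24 genes tested for their synthesis and transport 3 were higher, namely Cyp7a1, Cyp7b1 and the transporter Slco1a4 (1 without WT replicate 1) and 1 lower. Cyp7a1, the rate-limiting enzyme of the classical route, stood at 29.8, 25.1 and 59.5 CPM in WT and 191, 257 and 145 CPM in LKO livers (2.38 ± 0.41, adjusted p 0.00358). Cyp7b1, of the alternative route, was at 319, 339 and 457 CPM against 928, 703 and 552 CPM (0.97 ± 0.22, adjusted p 0.0177), and LKO replicate 1 was the highest. Klb, the co-receptor through which FGF signals from the gut hold Cyp7a1 down, was at 38.7, 35 and 35.4 CPM against 21.5, 22.3 and 23 CPM (-0.71 ± 0.14, adjusted p 0.00839). Every LKO liver was below every WT liver for Klb and above it for Cyp7a1 and Cyp7b1. The bile acid transporter Slc10a2 was not on this list and was also lower, with its values given under other observations. Fatty acid synthesis gave 3 of 18 higher, namely Acss2 (1.14 ± 0.19, adjusted p 0.00262) and Acly (0.91 ± 0.25, adjusted p 0.0484), which supply acetyl-CoA, and the elongase Elovl3 (1.13 ± 0.18, adjusted p 0.00219), and 1 lower, the carbohydrate sensor Mlxipl (-0.70 ± 0.19, adjusted p 0.0411). Its central genes Fasn and Srebf1 were not called, with WT replicate 2 at the top of the WT livers. Fasn stood at 96.4, 280.2 and 78.7 CPM against 216, 264 and 191 CPM and Srebf1 at 76.9, 197 and 78.7 CPM against 229, 163 and 144 CPM. The calls of Cyp7b1 without WT replicate 1 or LKO replicate 1 (adjusted p up to 0.0839), of Slco1a4 without WT replicate 1 or 2 or LKO replicate 2 or 3 (adjusted p up to 0.124), of Acly without WT replicate 1 or 3 or LKO replicate 1, 2 or 3 (adjusted p up to 0.179) and of Mlxipl without WT replicate 1, 2 or 3 or LKO replicate 2 or 3 (adjusted p up to 0.144) were lost.

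Genes that burn fatty acids were lower in LKO livers. Of 40 genes of fatty acid oxidation and targets of the receptor PPARA, 15 were called lower and 1 higher, 36 of 40 fold changes were negative, and the median was -0.43. Aldh3a2, the fatty aldehyde dehydrogenase, fell from 512, 389.9 and 507 CPM to 145, 163 and 143 CPM (-1.64 ± 0.14, adjusted p 1.24e-05), with the 3 LKO livers alike. Slc25a20, which carries acylcarnitines into mitochondria, stood at 152, 135 and 145 CPM against 89.7, 96.3 and 94.9 CPM (-0.62 ± 0.090, adjusted p 9.26e-04). Vnn1, a pantetheinase, was at 147, 87.9 and 129 CPM against 26.7, 30.4 and 38.9 CPM (-1.92 ± 0.28, adjusted p 8.67e-04). The shuttle enzyme Cpt1a had a log2 fold change of -0.61 ± 0.16, adjusted p 0.0389. In these genes the LKO livers differed little among themselves. The 1 higher gene was Pdk4, a kinase of pyruvate dehydrogenase, at 9.08, 13.5 and 15.2 CPM against 46.4, 65.7 and 49.2 CPM (2.10 ± 0.24, adjusted p 1.26e-04). Ppara itself was not called (-0.53 ± 0.20, adjusted p 0.139), with 68.4 CPM in WT replicate 2 and 139.7 and 138.7 CPM in the other WT livers. The GF mice gave 9 lower and 0 higher of these 40 genes, with a median of -0.372, and SPF mice gave 8 lower and 1 higher at ZT6, 16 and 1 at ZT10 and 17 and 0 at ZT22. Without 1 library the count of lower genes ranged from 5 (without LKO replicate 1) to 16, and was 7 without WT replicate 1 or 3 and 9 without LKO replicate 3, while the median stayed between -0.509 and -0.365. The call of Cpt1a without WT replicate 1 or 3 or LKO replicate 1 or 3 (adjusted p up to 0.182) was lost.

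Lipid uptake, storage and export gave 2 higher and 5 lower of 33 genes (3 without WT replicate 1, LKO replicate 1 or LKO replicate 3 for the lower ones). Besides Lpl, the hepatic lipase Lipc was higher, at 199, 201 and 199.8 CPM in WT and 286, 301 and 307 CPM in LKO livers (0.57 ± 0.10, adjusted p 0.00464). Cidec, which builds large lipid droplets, was at 2.73, 2.68 and 4.02 CPM against 1.18, 0.467 and 1.15 CPM (-1.74 ± 0.32, adjusted p 0.00464), and the fatty acid transporter Slc27a2 fell from 1669.9, 1342 and 1644 CPM to 1011, 1025 and 916 CPM (-0.66 ± 0.13, adjusted p 0.0077). Angptl4 and Fabp1 also handle lipid, and both are counted above in the fatty acid oxidation and PPARA list. Angptl4, an inhibitor of LPL and a fasting signal, was lower in LKO livers (-2.01 ± 0.51, adjusted p 0.03), though WT replicate 2 (48.5 CPM) lay below LKO replicate 3 (52.7 CPM). Fabp1, which binds fatty acids in the cytosol, fell from 4615, 4980.1 and 5036 CPM to 2074, 3172 and 2535 CPM (-0.91 ± 0.19, adjusted p 0.0103). The calls of Angptl4 without WT replicate 1 or 3 or LKO replicate 1 or 2 (adjusted p up to 0.126) and of Fabp1 without LKO replicate 1 (adjusted p up to 0.0591) were lost.

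**Figure D3:**
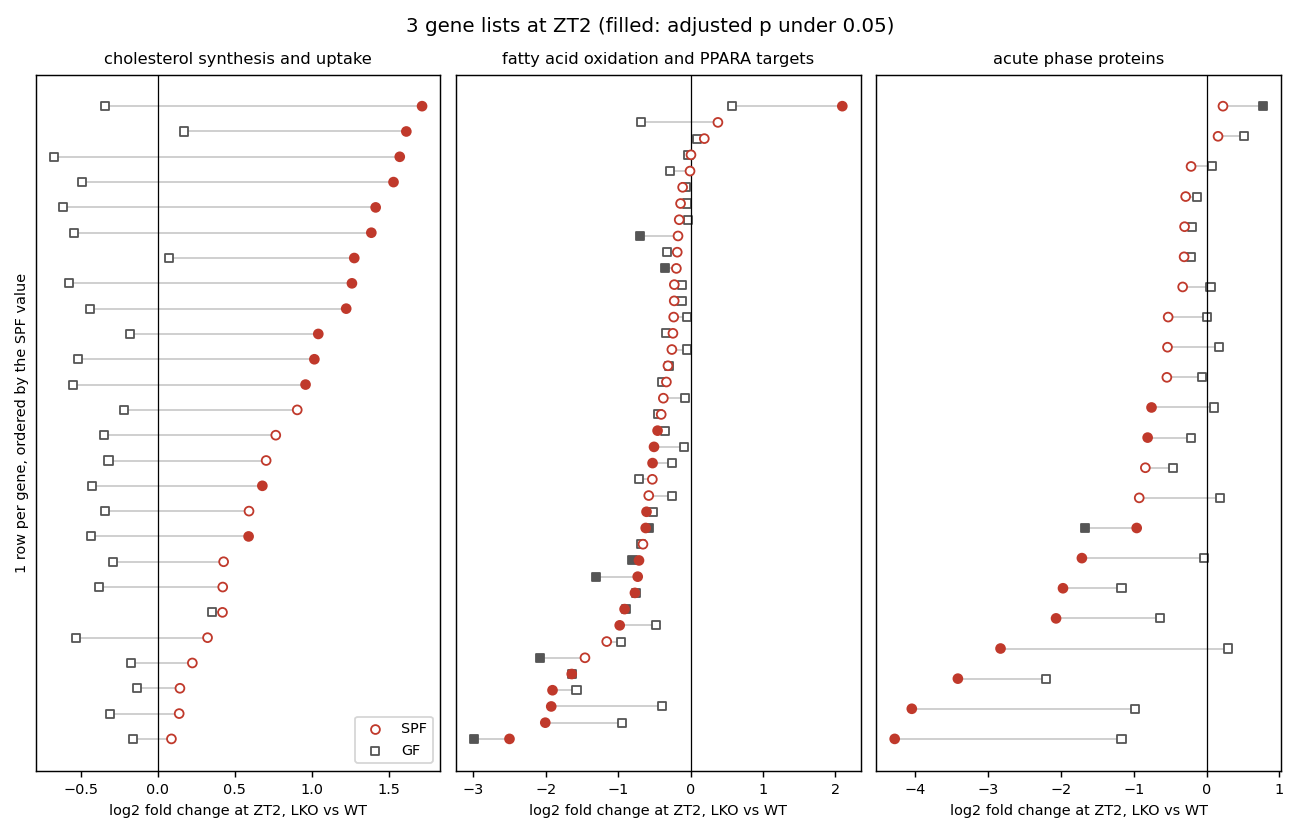
Log2 fold change at ZT2, LKO against WT, of every tested member of 3 gene lists, 1 row per gene, with circles for SPF and squares for GF mice, filled where the adjusted p was under 0.05. All 26 cholesterol genes lie above 0 in SPF mice and 23 of them below 0 in GF mice, while 36 of 40 fatty acid oxidation genes lie below 0 in SPF mice.

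Glucose metabolism gave few calls in number, with shares on both sides of the 6.89% of all genes tested. The share was 18.8% for gluconeogenesis, 18.8% for glycogen metabolism and 3.85% for glucose uptake and glycolysis. Gluconeogenesis gave 1 higher and 2 lower of 16, glycogen metabolism 2 higher and 1 lower of 16, and glucose uptake and glycolysis 0 higher and 1 lower of 26. Pck1, the cytosolic PEP carboxykinase that paces gluconeogenesis, stood at 3478, 1049 and 2726 CPM in WT and 781, 882 and 910.4 CPM in LKO livers (-1.49 ± 0.32, adjusted p 0.0139). WT replicate 2 was the lowest WT liver and still above the 3 LKO livers. Its mitochondrial form Pck2 was at 2.54, 4.13 and 3.3 CPM against 3.49, 3.03 and 2.12 CPM (-0.21 ± 0.27, adjusted p 0.726), and neither Fbp1 (0.042 ± 0.12, adjusted p 0.886) nor G6pc (0.032 ± 0.20, adjusted p 0.952), later enzymes of the route, was called. Slc37a4, which moves glucose 6-phosphate to the phosphatase, was lower (-0.54 ± 0.13, adjusted p 0.0267), and Got1, an aspartate aminotransferase, was higher (0.71 ± 0.15, adjusted p 0.0128). Gys2, the liver glycogen synthase, was lower (-0.50 ± 0.12, adjusted p 0.0235), while Ppp1r3b, which brings a phosphatase to glycogen, was higher (0.73 ± 0.20, adjusted p 0.0474), as was the glycogen primer Gyg (0.50 ± 0.14, adjusted p 0.0485). The glycolytic activator Pfkfb3 stood at 50.4, 9.16 and 81.1 CPM against 4.84, 5.23 and 6.76 CPM. Eno1, an enolase, was not called (-0.31 ± 0.16, adjusted p 0.282). The calls of Pck1 without WT replicate 1 or LKO replicate 1 or 2 (adjusted p up to 0.0665), of Slc37a4 without WT replicate 1 or 3 or LKO replicate 1 or 3 (adjusted p up to 0.118), of Got1 without LKO replicate 2 (adjusted p up to 0.0587), of Gys2 without WT replicate 1 or 3 or LKO replicate 1 or 3 (adjusted p up to 0.102), of Ppp1r3b without WT replicate 1 or 2 or LKO replicate 1 or 2 (adjusted p up to 0.171) and of Gyg without WT replicate 2 or 3 or LKO replicate 1, 2 or 3 (adjusted p up to 0.161) were lost.

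Acute phase proteins, which the liver secretes in inflammation, were lower in SPF LKO livers, with 10 of 22 lower, 0 higher and a median of -0.782. Saa1, a serum amyloid A gene, stood at 306, 32.8 and 48.2 CPM in WT and 7.15, 5.7 and 7.03 CPM in LKO livers (-4.28 ± 0.74, adjusted p 0.00355). Saa4 was at 934, 307 and 478 CPM against 158, 149 and 132 CPM (-1.97 ± 0.33, adjusted p 0.00258) and Saa3 at 5.13, 7.33 and 3.14 CPM against 1, 1.17 and 1.55 CPM (-2.07 ± 0.36, adjusted p 0.00374). WT replicate 1 was the highest liver for Saa1 and Saa4, yet the other 2 WT livers also lay above all LKO livers. Hp, for haptoglobin, was at 4863, 2568 and 2902 CPM against 1768, 2352 and 1779 CPM (-0.81 ± 0.21, adjusted p 0.035), and Lcn2, a siderophore-binding protein, at 38.2, 4.93 and 3.56 CPM against 2.66, 1.63 and 2.25 CPM (-2.83 ± 0.71, adjusted p 0.0288). Fgl1, a secreted factor of the liver, was at 1073, 149.6 and 540.2 CPM against 118, 124 and 111 CPM (-2.32 ± 0.49, adjusted p 0.0125). The median of the 22 genes was -0.379 without WT replicate 1 and between -0.955 and -0.732 without each of the other libraries. The count of lower genes was 5 without WT replicate 1, LKO replicate 1 or LKO replicate 2, 6 without LKO replicate 3 and 10 or 11 otherwise, and 6 in a fit of the 6 libraries alone. In GF mice 1 of the 22 was higher (Itih3), 1 lower (Serpina3m) and the median was -0.097, and in SPF mice at ZT6 8 were lower and 0 higher, at ZT10 5 and 6 and at ZT22 3 and 1. The calls of Hp without WT replicate 1 or LKO replicate 1 or 3 (adjusted p up to 0.15), of Lcn2 without WT replicate 1 or LKO replicate 1, 2 or 3 (adjusted p up to 0.128) and of Fgl1 without WT replicate 1 or LKO replicate 1 or 3 (adjusted p up to 0.0557) were lost, and those of Saa1, Saa3 and Saa4 held without each library.

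Stress genes gave smaller counts. The share called was 26.7% for glucocorticoid response and 12.5% for endoplasmic reticulum stress, against 6.89% of all genes tested. It was 4.76% for heat shock and cold-inducible genes and 0% for interferon-stimulated genes. Of 15 genes that respond to glucocorticoids 4 were lower and 0 higher, with 0 without WT replicate 1, LKO replicate 2 or LKO replicate 3, 1 without LKO replicate 1 and 7 without WT replicate 2. Mt1, for a metallothionein, ranged from 4.88 to 197 CPM among the WT livers and stood at 1.83, 3.74 and 3.8 CPM in the LKO livers, while its neighbour Mt2 had 176 counts over the WT and 1 over the LKO libraries, a ratio of 193 (95% counting interval 34.1 to 7654). WT replicate 1 held most of the counts of both, with 165 of the 176 of Mt2, whose log2 fold change went from -7.08 to -3.71 without it. The calls of Mt1 without WT replicate 1 or LKO replicate 1, 2 or 3 (adjusted p up to 0.166) and of Mt2 without WT replicate 1 or LKO replicate 1, 2 or 3 (adjusted p up to 0.38) were lost. Fkbp5, a classical glucocorticoid target, was not called (-1.40 ± 0.49, adjusted p 0.113) and was likewise highest in WT replicate 1, at 78.6, 18 and 31.7 CPM over the WT livers. Of 24 genes of endoplasmic reticulum stress 3 were lower (1 without WT replicate 1, WT replicate 3, LKO replicate 1 or LKO replicate 3 and 5 without WT replicate 2), with Trib3, a pseudokinase, at 8.99, 5.59 and 6.7 CPM against 1.35, 1.35 and 1.46 CPM (-2.35 ± 0.26, adjusted p 1.13e-04). Of 21 heat shock and cold-inducible genes edgeR called 1 lower, Hspb1 (-1.68 ± 0.32, adjusted p 0.0061), and DESeq2 3, while 8 were lower at an unadjusted p under 0.05. Of 25 interferon-stimulated genes edgeR called 0 and DESeq2 2, while 2 (Usp18 and Rsad2) had an unadjusted p under 0.05.

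**Figure D4:**
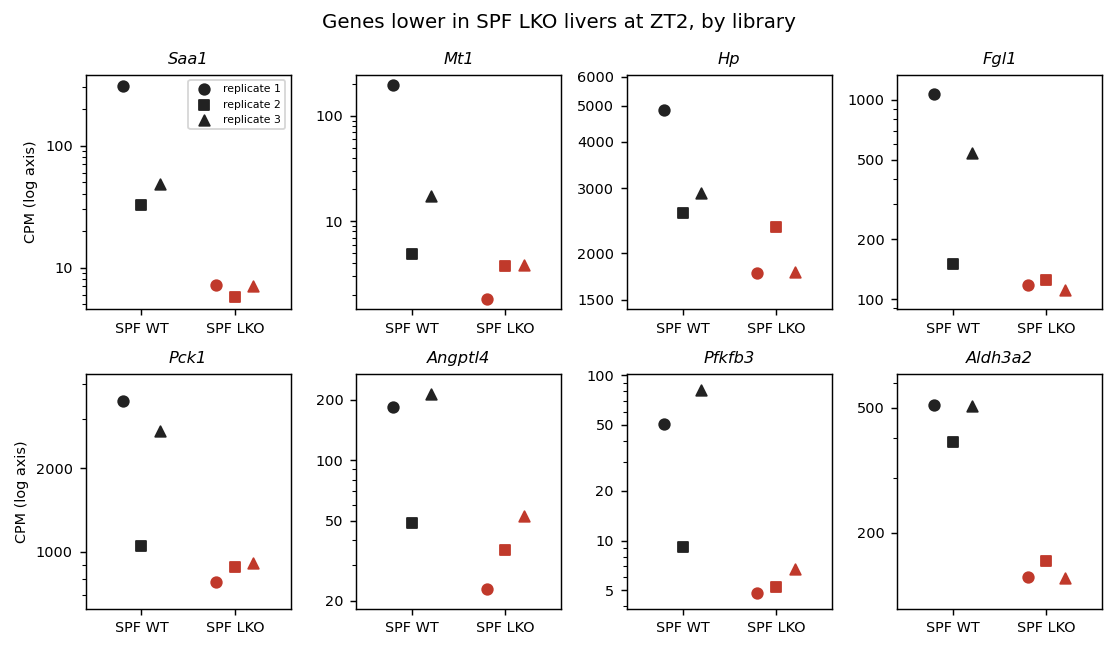
Levels in CPM on log axes of 8 genes called lower in SPF LKO livers at ZT2, with marker shapes for replicates 1, 2 and 3. WT replicate 1 stands high for Saa1, Mt1, Hp and Fgl1, WT replicate 2 stands low for Pck1, Angptl4 and Pfkfb3, and the LKO livers lie closer together.

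Drug and hormone metabolism split into genes that rose and genes that fell. Of 44 genes of xenobiotic metabolism 7 were higher (4 without WT replicate 1, LKO replicate 1 or LKO replicate 2) and 8 lower (3 without LKO replicate 1 and 5 without WT replicate 1 or LKO replicate 2), and of 29 genes of glutathione and NRF2 defence 4 were higher and 3 lower. Cyp2c55, a P450 of the CAR and PXR programme, stood at 7.57, 13.6 and 5.77 CPM in WT and 176, 219 and 202 CPM in LKO livers (4.46 ± 0.27, adjusted p 6.01e-07), and Cyp2c29 at 3305, 2836 and 2691 CPM against 5341, 6447 and 6188 CPM (1.03 ± 0.13, adjusted p 3.33e-04). Cyp2b10, the usual marker of CAR activity, was at 34.5, 21.1 and 7.94 CPM against 75.8, 117 and 96.4 CPM (2.19 ± 0.48, adjusted p 0.0145). The receptors themselves went the other way, for CAR (Nr1i3) was at 60.3, 41.1 and 57.1 CPM against 30.4, 26.5 and 30.9 CPM (-0.85 ± 0.19, adjusted p 0.0159) and PXR (Nr1i2) at 88.6, 73.7 and 87.8 CPM against 46.4, 53 and 57.8 CPM (-0.67 ± 0.17, adjusted p 0.0285). The mu-class glutathione transferases Gstm1, Gstm2, Gstm3, Gstm6 and Gstm7 rose. Gstm3 stood at 25.6, 31 and 9.999 CPM against 277, 317 and 278 CPM, Gstm2 at 32.5, 22.1 and 14.5 CPM against 195, 198 and 205 CPM and Gstm1 at 813, 963 and 539 CPM against 1686, 2096 and 1658 CPM. Their log2 fold changes were 3.71 ± 0.32, adjusted p 1.24e-05, 3.11 ± 0.23, adjusted p 4.27e-06 and 1.23 ± 0.21, adjusted p 0.00258. Gstt2, of the theta class, fell from 54.7, 50.2 and 39.996 CPM to 13.7, 9.85 and 18 CPM (-1.80 ± 0.29, adjusted p 0.00177). Only reads that aligned to 1 place were counted, so members of these families with near-identical copies are uncertain. The calls of Cyp2b10 without LKO replicate 2 (adjusted p up to 0.0519), of Nr1i3 without WT replicate 1 or 3 or LKO replicate 1 or 2 (adjusted p up to 0.0733) and of Nr1i2 without WT replicate 1 or 3 or LKO replicate 1, 2 or 3 (adjusted p up to 0.128) were lost.

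Genes that differ between male and female livers were called in both directions. Of 22 genes known as higher in males 3 were higher and 2 lower, and of 14 tested genes known as higher in females 5 were higher and 2 lower, all in male mice. Prlr, the prolactin receptor, stood at 141, 76.7 and 94 CPM in WT and 265, 267 and 227 CPM in LKO livers (1.28 ± 0.19, adjusted p 9.80e-04), and Atp6v0d2, a proton pump subunit, at 2.93, 2.49 and 3.2 CPM against 6.8, 10.9 and 11.8 CPM (1.77 ± 0.20, adjusted p 1.52e-04). Cyp17a1, a female-biased steroid hydroxylase, was at 4, 2.44 and 3.14 CPM against 0.48, 0.934 and 0.575 CPM (-2.27 ± 0.35, adjusted p 0.00144). The 20 major urinary proteins, a family counted after values were seen, gave 6 lower and 0 higher with a median of -1.183. The growth hormone and IGF list gave 1 call of 19, Irs2 (1.38 ± 0.29, adjusted p 0.0107), an adaptor of the insulin receptor, and Igf1 itself was not called (0.35 ± 0.11, adjusted p 0.081). The call of Irs2 without WT replicate 1 or LKO replicate 1 (adjusted p up to 0.0519) was lost.

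Amino acid catabolism and the urea cycle had 9 higher (4 without LKO replicate 1 and 5 without WT replicate 3) and 3 lower genes of 36. Bhmt, which remethylates homocysteine, rose from 318, 401 and 371 CPM to 966, 874 and 981 CPM (1.37 ± 0.13, adjusted p 2.85e-05), and Oat, the ornithine aminotransferase, from 1044, 574 and 905 CPM to 1652, 1696 and 1968 CPM (1.07 ± 0.19, adjusted p 0.00425). Cps1, which feeds ammonia into the urea cycle, stood at 3327, 3551 and 3302 CPM against 5339, 5391 and 4612 CPM (0.59 ± 0.12, adjusted p 0.00803). Prodh2, which starts the breakdown of hydroxyproline, fell from 160.2, 152 and 152 CPM to 84.8, 65.8 and 60.7 CPM (-1.13 ± 0.14, adjusted p 2.53e-04), and Ahcy, which clears S-adenosylhomocysteine, from 211, 184 and 199 CPM to 114, 137 and 117 CPM (-0.69 ± 0.11, adjusted p 0.00194). For all 5 genes the 3 LKO livers lay outside the range of the WT livers. Of 22 genes of the cell cycle and DNA replication 5 were higher (3 without WT replicate 1 or WT replicate 2) and 0 lower, among them Wee1, a kinase that holds cells before mitosis, at 1.66, 2.11 and 2.53 CPM against 7.54, 8.45 and 6.45 CPM (1.83 ± 0.22, adjusted p 1.83e-04). The replication helicase subunits Mcm4 (1.07 ± 0.17, adjusted p 0.00204) and Mcm6 (1.04 ± 0.21, adjusted p 0.0096) were among them too.

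Other lists lay on both sides of the overall share. Genes called made up 2.6% of the ribosomal proteins and 4.76% of the NAD genes, against 6.89% of all genes tested. They made up 16.7% of the heme and iron genes and 29.2% of the secreted factors. Of 77 cytosolic ribosomal proteins 2 were higher, Rps2 (0.74 ± 0.15, adjusted p 0.00897) and Rplp2 (0.68 ± 0.16, adjusted p 0.0225), and of 21 genes of NAD metabolism 1 was higher, Acmsd (0.82 ± 0.22, adjusted p 0.0424). The rhythmic NAD enzyme Nampt stood at 64, 55.3 and 71.4 CPM in WT and 54.6, 62.1 and 68.6 CPM in LKO livers (-0.041 ± 0.14, adjusted p 0.907). Heme and iron genes gave 1 higher, Cp for ceruloplasmin (0.49 ± 0.11, adjusted p 0.0209), and 3 lower of 24 (Blvrb, Ftl1 and Slc39a14, with 0 without WT replicate 1 or LKO replicate 3 and 1 without WT replicate 3, LKO replicate 1 or LKO replicate 2). Of 24 secreted factors 2 were higher and 5 lower (1 without WT replicate 1 or LKO replicate 1, 2 without WT replicate 3 and 3 without LKO replicate 2), with the defensin Defb1 at 1.66, 2.35 and 2.01 CPM against 7.24, 10.1 and 13.7 CPM (2.36 ± 0.37, adjusted p 0.00164) and Enho, for adropin, at 19.9, 13.2 and 11.3 CPM against 3.79, 6.82 and 3.09 CPM (-1.70 ± 0.32, adjusted p 0.00621). Selenop, which carries selenium to other organs, fell from 7739, 6072 and 7243 CPM to 4130.2, 4676 and 4832 CPM (-0.63 ± 0.13, adjusted p 0.0131). The calls of Rplp2 without WT replicate 1 or LKO replicate 2 or 3 (adjusted p up to 0.0985), of Acmsd without any 1 of the 6 libraries (adjusted p up to 0.152), of Cp without WT replicate 2 or 3 or LKO replicate 2 or 3 (adjusted p up to 0.0675) and of Selenop without WT replicate 1 or LKO replicate 1 (adjusted p up to 0.0739) were lost.

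The tissue expressed hepatocyte markers throughout, with 0 of 10 at 0 counts, and Alb took most of their sum. Alb stood at 79422, 83787 and 70392 CPM in WT and 25133, 49186 and 36383 CPM in LKO livers (-1.08 ± 0.23, adjusted p 0.0116), and the summed level of the 10 markers, on a scale shared by all 72 libraries, was 95320 to 109500 CPM in WT and 50350 to 78140 CPM in LKO livers. Of the 10 markers 3 were called lower (Alb, Hnf4a and Tat) and 2 higher (Cps1 and Ass1). Kupffer cell and macrophage markers summed to 297.5 to 365.6 CPM in WT and 236.9 to 261.6 CPM in LKO livers, with 10 of 10 fold changes negative and 1 called, Marco (-2.15 ± 0.60, adjusted p 0.0488). Neutrophil markers were at 5.84 to 18.1 CPM against 2.18 to 4.93 CPM, 2 of 3 tested were lower (Csf3r and S100a8), and the granule marker Mpo was at 0 in all 6 libraries. Red blood cell markers were at 308.7 to 508.3 CPM against 147.4 to 269.0 CPM, with the alpha globins Hba-a1 (-1.20 ± 0.32, adjusted p 0.041) and Hba-a2 (-1.42 ± 0.33, adjusted p 0.0207) lower. Stellate cell and fibroblast markers were at 312.6 to 340.5 CPM against 355.6 to 391.4 CPM, with Reln higher (0.52 ± 0.12, adjusted p 0.0175). Endothelial, lymphocyte and cholangiocyte sums overlapped between the groups. The calls of Hnf4a without WT replicate 1 or 3 or LKO replicate 1 or 3 (adjusted p up to 0.123), of Tat without WT replicate 1 or 3 or LKO replicate 1, 2 or 3 (adjusted p up to 0.214), of Ass1 without WT replicate 3 or LKO replicate 1 or 2 (adjusted p up to 0.0569), of Marco without WT replicate 1 or 2 or LKO replicate 1, 2 or 3 (adjusted p up to 0.242), of Csf3r without WT replicate 1 or 3 or LKO replicate 1 or 2 (adjusted p up to 0.12), of S100a8 without WT replicate 1 or 3 or LKO replicate 1, 2 or 3 (adjusted p up to 0.209), of Hba-a1 without WT replicate 3 or LKO replicate 1, 2 or 3 (adjusted p up to 0.175), of Hba-a2 without WT replicate 3 or LKO replicate 1 or 3 (adjusted p up to 0.0984) and of Reln without WT replicate 1 or 3 or LKO replicate 1 or 2 (adjusted p up to 0.0779) were lost. The parts of immune cells and of blood in the lower acute phase genes were not tested.

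Pancreas acinar markers summed to 24.8 to 33.7 CPM in WT and 58.7 to 79.6 CPM in LKO livers, and 4 of 8 (Amy2a5, Prss2, Ctrb1 and Pnlip) were at 0 and the sum was nearly all Cela1, an elastase gene, at 25.2, 34.2 and 30.4 CPM against 69.9, 79.7 and 59.5 CPM (1.22 ± 0.15, adjusted p 2.11e-04). Of 5 adipocyte markers 3 (Lep, Plin1 and Retn) were at 0. The 1 tested was Cfd, for complement factor D, with 49 counts over the WT and 0 over the LKO libraries, which makes it at least 17.9-fold lower in LKO livers (against a floor of 3 counts over the group).

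Most genes called in SPF mice at ZT2 had the same sign in mice that the comparison did not use. Of the 496 higher genes, 440 (88.7%) were also positive in GF mice at ZT2, 195 were called higher there and 0 lower, out of 572 genes called in GF mice (4.21%). Of the 441 lower genes, 405 (91.8%) were negative in GF mice, 144 were called lower and 1 higher. Over all genes tested 48.4% of the fold changes were positive in GF mice. SPF mice at the other times compared gave like shares. Of the higher genes 94.5% were positive at ZT6, 94.2% at ZT10 and 89.5% at ZT22, and of the lower genes 93.9%, 95.7% and 93.4% were negative, with 0 to 3 genes called in the opposite direction. Calls between SPF LKO and SPF WT livers made up 7.26% of the genes tested at ZT6, 11.9% at ZT10 and 3.31% at ZT22.

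The size of the genotype effect differed between ZT2 and ZT10 for 74 of 13761 genes (0.538%), 37 more positive and 37 more negative at ZT2, in a test of the difference within SPF mice. Wee1 changed sign. On a scale shared by all 72 libraries it stood at 1.61, 2.07 and 2.45 CPM in WT and 7.41, 8.41 and 6.31 CPM in LKO livers at ZT2 and at 16.1, 23.3 and 26.9 and 8.12, 8.77 and 7.62 CPM at ZT10, and the difference of the log2 fold changes was 3.29 ± 0.28, adjusted p 1.08e-04. Across both times the LKO livers stayed within a narrow range while the WT livers were low at ZT2 and high at ZT10.

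Several clock genes were among the 74. Arntl stood at 1.8, 1.37 and 0.626 CPM in WT and 8.52, 9.4 and 9.13 CPM in LKO livers at ZT10, so LKO livers were above WT there and not called different at ZT2 (difference -3.36 ± 0.47, adjusted p 0.00519). Clock (-1.26 ± 0.21, adjusted p 0.0155) likewise differed between LKO and WT at ZT10, with a log2 fold change of 1.29, and not at ZT2. Per3 was at 31.3, 44.9 and 41.8 CPM against 6.06, 10.8 and 5.37 CPM at ZT10 and overlapped at ZT2 (2.37 ± 0.39, adjusted p 0.0119). WT values of these 3 genes moved between the times by more than LKO values did.

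Metabolic genes were among the 74 as well. Cyp7a1 was higher in LKO livers at ZT2 and overlapped at ZT10, where WT livers held 174, 119 and 146 CPM and LKO livers 190.5, 146 and 77.6 CPM (difference 2.48 ± 0.48, adjusted p 0.0363). Elovl3 was at 157, 74.1 and 116 CPM against 1491, 1396 and 1579 CPM at ZT10, a wider gap than at ZT2 (-2.53 ± 0.33, adjusted p 0.00368), and Lpl also had the larger fold change at ZT10 (-1.13 ± 0.22, adjusted p 0.033). Cdkn1a, for the cell cycle inhibitor p21, was not called at ZT2 (1.29 ± 0.66, adjusted p 0.281) and stood at 3.08, 0.732 and 0.887 CPM against 69.9, 55.7 and 85.8 CPM at ZT10 (-4.22 ± 0.51, adjusted p 0.00233). Thrsp, a lipogenic factor, was not called at ZT2 either (0.36 ± 0.17, adjusted p 0.24) and was lower in LKO livers at ZT10, at 1418, 1106 and 1997 CPM against 248, 331 and 121 CPM (3.06 ± 0.44, adjusted p 0.00557). Without 1 library at either time the number of genes that differed between the times ranged from 44 (without LKO replicate 1 of ZT2 or of ZT10) to 114 (without WT replicate 2 of ZT2), and was 48 or 49 without WT replicate 3 of ZT2 or of ZT10 or without LKO replicate 3 of ZT10.

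**Figure D5:**
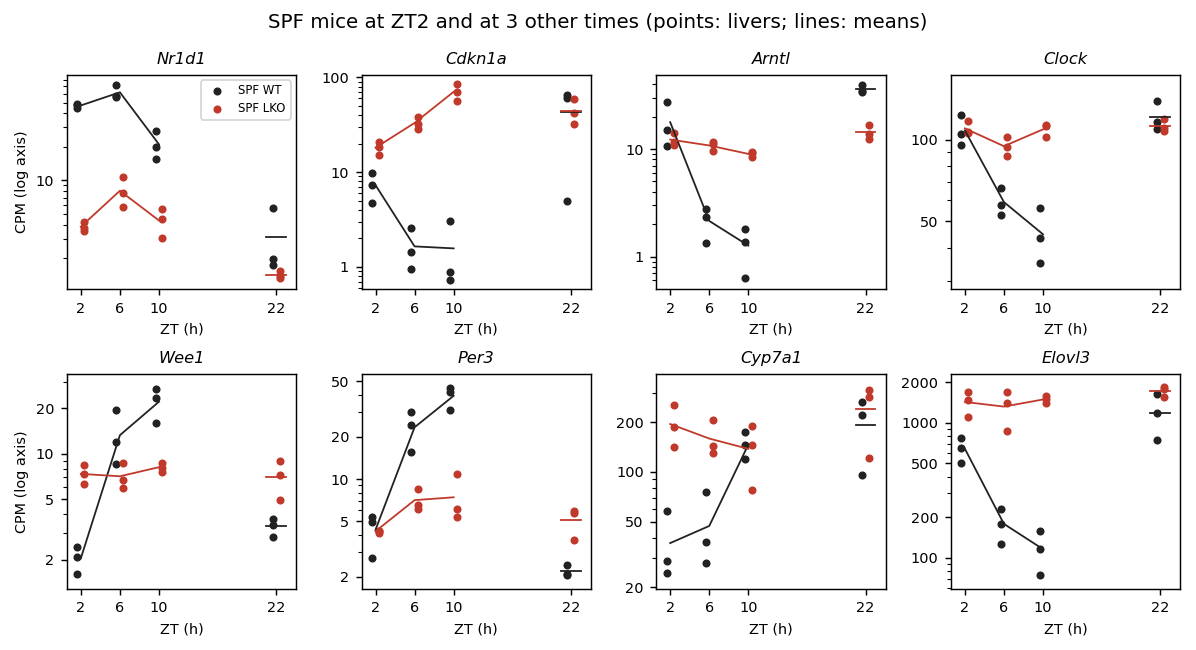
Levels of 8 genes in SPF livers at ZT2, ZT6, ZT10 and ZT22 in CPM on a log axis, scaled over all 72 libraries, with points for livers and lines for means of 3, joined where sampling times are adjacent. LKO livers (red) change less between times than WT livers (black) for Arntl, Clock, Wee1, Per3 and Elovl3, and the gap at ZT2 is wide for Nr1d1 and Cyp7a1.

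The direction of change at ZT2 went with the time of day at which a gene peaks in a WT liver. Peak times were read from GF WT mice, whose values did not enter these fold changes, as the time of the highest mean of 3, and neighbouring times were joined after the values were seen. Of the genes higher in SPF LKO livers 53.4% had their peak at ZT22 or ZT2, against 32.9% of all genes tested, and 253 of the 496 had their lowest mean at ZT10 or ZT14, against 38.1%. Of the genes lower in SPF LKO livers 49.9% had their peak at ZT6 or ZT10, against 35.8% of all genes tested, and 48.5% had their lowest mean at ZT22 or ZT2, against 28.6%. The times joined were not the same for both sets. At ZT6 or ZT10 46.6% of the higher genes had their lowest mean, against 33.1% of all genes tested. At ZT10 or ZT14 43.1% of the lower genes had their peak, against 35.7%. The log2 range from lowest to highest mean had a median of 0.7 for higher genes, 0.63 for lower genes and 0.43 for all genes tested. Single peak times rest on 3 mice per time and were not tested for rhythm.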

How the data were processed

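RNA from flash-frozen livers was made into stranded mRNA libraries and read as single ends. Per the labels and the study's methods the authors aligned the reads to GRCm38 (mm10) with STAR 2.6.1b and assigned uniquely aligned reads to Ensembl release 97 genes with featureCounts 2.0.0, without using strand, and deposited raw counts per gene. Without strand, a gene and an overlapping antisense gene cannot be told apart.

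Of the 55573 genes in the table, 22224 were at 0 throughout. edgeR 4.0.16 (R 4.3.3) fitted the 12 libraries of ZT2 as 4 groups (filterByExpr, TMM factors, quasi-likelihood test), and genes with an adjusted p under 0.05 were called. The SE is the log2 fold change divided by the square root of F. SPF mice at ZT6, ZT10 and ZT22 were fitted separately, and a fit of the 12 SPF libraries of ZT2 and ZT10 gave the difference between those times. SPF mice at ZT14 and ZT18 were not compared. Earlier results of these data name libraries there whose expression goes against their labels. Alternatives were DESeq2 1.42.0, other scaling and filters, a replicate block, a fold minimum and leaving out each library.

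Gene positions came from GENCODE (GRCm38) and promoters from RefSeq. Named genes were the clock genes, the 12 largest changes each way, up to 4 members of each list with the smallest adjusted p, a central member that was not called, genes the study names and up to 4 genes each way for each interaction. Others (Fgl1, Fasn, Srebf1, Alb, Pdk4 and a few more) were chosen after their values were seen. Some genes of these lists are counted but not reported by name here. The members and lists were chosen with earlier results of these data known. Intervals on counts cover counting error only.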

Additional observations from a re-analysis of the deposited data

Results flagged for a closer look

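For 3 genes the effect of the genotype at ZT2 differed between GF and SPF mice in a test of the difference itself, with log2 values of GF minus SPF. It was -2.03 ± 0.27, adjusted p 0.0394 for Hmgcs1, -1.94 ± 0.28, adjusted p 0.0434 for Fdps and -2.48 ± 0.35, adjusted p 0.0394 for Lrtm1. Hmgcs1 and Fdps were higher in LKO than in WT livers of SPF mice and lower in those of GF mice, where neither was called, whereas the value of Lrtm1 was positive in both (3.31 ± 0.27, adjusted p 6.81e-06 in SPF and 0.83 ± 0.23, adjusted p 0.0656 in GF mice).

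Among the genes named in the text, 13 had a genotype effect in SPF mice that differed between ZT2 and ZT10, again by a test of the difference. The effect was more positive at ZT2 for Wee1 (3.29 ± 0.28, adjusted p 1.08e-04), Thrsp (3.06 ± 0.44, adjusted p 0.00557), Cyp7a1 (2.48 ± 0.48, adjusted p 0.0363), Per3 (2.37 ± 0.39, adjusted p 0.0119) and Cyp2a5, a coumarin hydroxylase (1.80 ± 0.37, adjusted p 0.0496). It was also more positive at ZT2 for Gys2 (1.08 ± 0.15, adjusted p 0.00557) and the NAD enzyme Nampt (1.02 ± 0.17, adjusted p 0.0155). The effect was more negative at ZT2 for Cdkn1a (-4.22 ± 0.51, adjusted p 0.00233), the lincRNA Gm15611 (-3.60 ± 0.70, adjusted p 0.0383), Arntl (-3.36 ± 0.47, adjusted p 0.00519) and Elovl3 (-2.53 ± 0.33, adjusted p 0.00368), and by a smaller step for Clock (-1.26 ± 0.21, adjusted p 0.0155) and Lpl (-1.13 ± 0.22, adjusted p 0.033). Groups of 3 livers were too small to look for single libraries that stand apart by a formal rule.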

How the results depend on the processing

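No called gene of the 216 named genes with a value changed direction under any alternative. Of the 142 called among them 77 passed the threshold without each of the 6 libraries and 65 were lost without at least 1. With 1 library left out, SPF mice at ZT2 gave 479 to 1009 calls (280 to 495 higher, 192 to 514 lower) and GF mice 323 to 544 (188 to 301 and 133 to 252). The difference GF minus SPF then gave 0 to 20 calls (0 to 4 higher, 0 to 16 lower) and ZT2 minus ZT10 gave 44 to 114 (19 to 56 and 23 to 58).

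With DESeq2, SPF mice at ZT2 gave 1297 calls (678 higher, 619 lower) and GF mice 796 (440 and 356). GF minus SPF then gave 74 calls (16 higher, 58 lower) and ZT2 minus ZT10 gave 211 (116 and 95). With library sizes alone, SPF mice gave 777 higher and 289 lower, GF mice 882 calls (724 and 158) and GF minus SPF 1 call, which was lower. Without the filter on low counts, SPF mice gave 1599 calls (852 and 747), GF mice 1104 (547 and 557), GF minus SPF 423 (184 and 239) and ZT2 minus ZT10 515 (244 and 271). Asking also for a log2 change of 1 or more left 411 calls in SPF mice (222 and 189) and 303 in GF mice (168 and 135). The cause of these shifts was not tested.

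With the replicate number as a block, SPF mice gave 1017 calls, GF mice 572, GF minus SPF 7 (all lower) and ZT2 minus ZT10 62. Libraries that share a number came from different mice. Deviations from the group means were correlated between WT and LKO libraries. In SPF mice the correlation was 0.025 to 0.238 for the same number and -0.211 to 0.013 for different numbers. In GF mice it was 0.045 to 0.175 and -0.182 to 0.126. Each of the 6 SPF libraries correlated best with its own number, while GF WT replicate 3 and GF LKO replicate 2 did not. The labels give no pairing of the mice, and the main fit used none. What SPF libraries of the same number have in common was not tested.

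Values that changed sign belonged to genes that were not called. With library sizes alone the log2 fold change was 0.053 for Per3, 0.058 for Nampt and 0.038 for Tef. With 1 library left out it ranged from -0.302 to 0.133 for Per3, -0.072 to 0.119 for Clock, -0.284 to 0.090 for Tef, -0.010 to 0.176 for Rora, -0.139 to 0.158 for Nfil3, -0.016 to 0.142 for Hlf and -0.129 to 0.051 for Nampt. It ranged from -0.167 to 0.171 for G6pc, -0.016 to 0.099 for Fbp1 and -0.623 to 0.134 for the cholangiocyte marker Spp1. The 3 mice per group and the spread among WT livers limit what could be called, and genes under the count filter could not be tested.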

Other observations

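Other genes stood out at ZT2 in SPF mice and were chosen after their values were seen. The nuclear receptors, transcription factors that bind hormones and metabolites, gave 4 higher and 5 lower of 39 tested (23.1%). Ppard, the widely expressed relative of PPARA, rose from 3.42, 7.05 and 3.76 CPM to 42.2, 35.8 and 32.1 CPM (2.95 ± 0.24, adjusted p 7.10e-06). Its groups were apart, and its call held without each of the 6 libraries. Hnf4a, which sustains hepatocyte identity, was lower by a smaller step (-0.57 ± 0.14, adjusted p 0.0267), and the call of Hnf4a without WT replicate 1 or 3 or LKO replicate 1 or 3 (adjusted p up to 0.123) was lost.

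Single genes with large changes, also picked by their values, are given next and stand for no group. Mtnr1a, the melatonin receptor, stood at 1.95, 3.15 and 2.78 CPM in WT and 7.46, 8.22 and 8.84 CPM in LKO livers (1.63 ± 0.19, adjusted p 1.41e-04). Erbb4, a receptor for neuregulins, was at 4.98, 5.31 and 7.63 CPM against 16.9, 17.4 and 19.5 CPM (1.59 ± 0.28, adjusted p 0.00358), and Smo, the transducer of hedgehog signals, at 6.3, 8.5 and 8.04 CPM against 20.3, 19.6 and 20.7 CPM (1.41 ± 0.16, adjusted p 1.16e-04). For each of these 3 receptors the LKO livers lay on 1 side of the WT livers. Of 245 genes with solute carrier symbols 12 were higher and 26 lower (15.5%). The bile acid transporter Slc10a2 was at 70.03, 30.6 and 47.4 CPM against 8.33, 10.3 and 8.75 CPM (-2.44 ± 0.30, adjusted p 2.38e-04) and the drug exporter Slc47a1 at 100.4, 95.7 and 102 CPM against 34.6, 33.7 and 31.3 CPM (-1.58 ± 0.14, adjusted p 1.79e-05). Dio1, the deiodinase that activates thyroid hormone, stood at 233, 112 and 178 CPM against 39.98, 23.1 and 20.4 CPM (-2.65 ± 0.32, adjusted p 2.06e-04), and the protease inhibitor Serpine2 at 17.2, 15.8 and 20.3 CPM against 3.71, 2.89 and 2.48 CPM (-2.55 ± 0.25, adjusted p 3.61e-05).

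Cytochromes P450 gave 12 higher and 7 lower of 70 tested (27.1%) and glutathione transferases 6 higher and 4 lower of 21 (47.6%), both with copies that share sequence. In GF mice the log2 fold change was 1.52 ± 0.22, adjusted p 0.00116 for Ppard, 0.39 ± 0.28, adjusted p 0.582 for Erbb4 and -1.39 ± 0.30, adjusted p 0.0166 for Dio1.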
